A study of Drosophila melanogaster with 5 samples.

Results

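Of 2557 Scalloped (Sd) peaks called in Drosophila melanogaster eye imaginal discs, 293 shared a Yorkie (Yki) peak with at least 1 other Sd peak. They lay in 135 Yki regions, out of 11679 in all. The members were chosen by overlap alone: an Sd peak counts when it shares at least 1 bp with a Yki peak that itself overlaps 2 or more Sd peaks. Over the whole lists, this takes 11.5% of Sd peaks and 1.16% of Yki peaks. Another 2206 Sd peaks were alone in their Yki region, and 58 were on no Yki peak. Because the rule used the Yki and Sd lists, the number, width, spacing and scores given from these lists are descriptions. The RNA polymerase II (Pol II) list was not used by the rule.

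Yki is the coactivator through which the Hippo pathway controls organ growth. It does not bind DNA by itself, and the kinase Warts holds it out of the nucleus by phosphorylation, at S168 among other sites. Sd, the fly TEAD protein, binds short DNA motifs through its TEA domain and brings Yki to its target genes, among which expanded, bantam and Diap1 are well known. A regulatory element can hold more than 1 such motif, so that separate Sd sites can lie close together under a single stretch of Yki signal.

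Chromatin immunoprecipitation with sequencing (ChIP-seq) was done on eye discs of third-instar larvae, with 1 library for each antibody and about 300 discs behind each. The Yki and Sd libraries came from larvae of genotype GMR-Gal4 with UAS-Drosophila Yki S168A, which express a Yki form that lacks the phosphorylation site. The Pol II library came from GMR-Gal4 with UAS-Drosophila Yki-V5, so wherever Pol II is compared, antibody and genotype change at once and cannot be told apart. All 3 groups overexpress Yki and are labelled with ectopic cell proliferation. GMR-Gal4 drives expression in the posterior eye disc, while whole discs were pooled for each immunoprecipitation, so cells with and without the driver are mixed. The Pol II antibody, 8WG16, is directed at the C-terminal repeats of the largest subunit. There are no replicates, and read depth behind the lists is unknown, so no difference between libraries was tested and no p-value is given. Each peak carries 1 value from the authors' peak caller, called its score here, which is used to rank peaks within 1 list. All coordinates are on genome build dm3, and peaks were not assigned to genes, since no annotation of that build was used here.

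Most of the 135 regions held a pair of Sd peaks. Exactly 2 were found in 118 regions, 3 in 12, 4 in 4 and 5 in 1. The 17 regions with 3 or more held 57 of the 293 grouped Sd peaks. Nearly all grouped Sd peaks, 278, lay wholly inside their region, and the other 15 reached past its edge. The smallest overlap counted was 68 bp, for an Sd peak on 2L from 6166022 to 6166298 that also touched another Yki peak. This was the single grouped Sd peak that overlapped 2 Yki peaks. The next smallest overlap, 101 bp, belonged to an Sd peak on 3R from 6412070 to 6412283. Just outside the rule stood a Yki region of 1184 bp with 1 Sd peak, at 13175324 to 13176507 on 3L, since a further Sd peak lay 87 bp beyond its edge. On 2RHet, a Yki region of 382 bp from 471583 to 471964 missed a further Sd peak by 99 bp. Among the 2208 Yki regions with 1 Sd peak and another Sd peak on the same chromosome, 2 had that peak within 100 bp of their edge, 135 within 500 bp and 265 within 1000 bp.

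The regions were wide for Yki peaks. Their median width was 1345 bp (quartiles 1052 and 1766, range 541 to 4492), against 560 bp (413 and 817) for the 2210 Yki regions with 1 Sd peak and 367 bp for the 9334 without one. A region must be wide enough to hold separate Sd peaks, so this difference follows in part from the rule. Regions with 2 Sd peaks had a median width of 1241 bp and those with 3 or more of 2478 bp, with none of the latter under 1470 bp. Of the 743 Yki peaks wider than 1000 bp, 109 held 2 or more Sd peaks, 330 held exactly 1 and 304 held none. Among the 43 wider than 2000 bp the order turned, with 24 holding 2 or more, 13 holding 1 and 6 holding none. The 135 regions covered 206 kb, or 3.56% of the length of all Yki peaks.

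**Figure D1:**
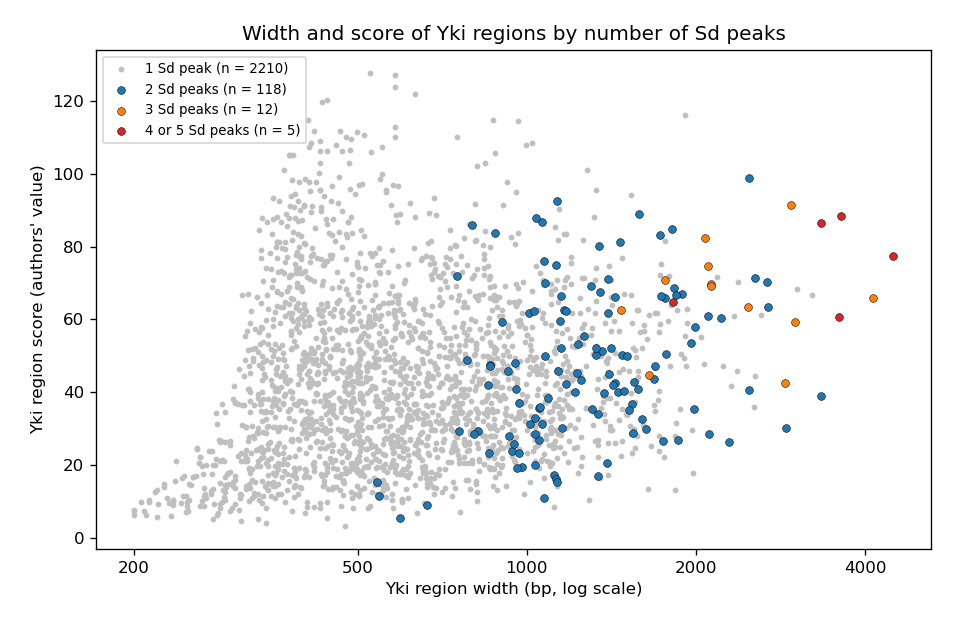
Width of each Yki region in bp (x axis, log scale) against its score (y axis, the authors' value), with regions holding 1 Sd peak in grey and those holding 2, 3, or 4 and 5 Sd peaks in colour. Regions with 3 or more Sd peaks sit at the right, all at 1470 bp or wider, while the highest-scoring Yki regions are narrower and hold 1 Sd peak.

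Yki scores of the regions spanned nearly the whole list, short of its highest peaks. The median Yki score was 47.5 (quartiles 32.9 and 66.3), against 40.8 (26.3 and 57.7) for regions with 1 Sd peak and 18.5 for Yki peaks without Sd. The ranges overlapped widely, from 5.37 to 99.0 in the grouped regions and from 3.05 to 128 in those with 1 Sd peak. By width, the order of the medians differed, though some classes were small. Grouped regions scored lower up to 800 bp (22.2, n = 8, against 39.3 with 1 Sd peak) and at 800 to 1000 bp (33.3, n = 18, against 42.8). They scored higher at 1000 to 1500 bp (47.9 against 43.4), at 1500 to 2000 bp (50.0 against 47.3) and above 2000 bp (64.7, n = 24, against 55.0, n = 13). The first grouped region stood at rank 46 of the Yki list. Of the 100 highest Yki peaks 4 were grouped regions, of the 500 highest 38 were, and of the 1168 highest 61 were. Over all Yki peaks the share of grouped regions was 1.16%, and over Yki peaks with Sd it was 5.76%.

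The highest score, 99.0, belonged to a 2486 bp region on X from 3300956 to 3303441. Its 2 Sd peaks were the most unequal of all: an 880 bp peak at 3301502 to 3302381 carried the top score of the Sd list, 16.3, and a 239 bp peak at 3303170 to 3303408 carried 2.41. The Pol II peak nearest to this region was 17081 bp away. The second was an 1131 bp region on 3R from 16773724 to 16774854 (Yki score 92.4), whose Sd peaks scored 12.1 and 6.72, and here the weaker of them overlapped Pol II. Next came a region on X from 17722292 to 17725245 (91.5) with 3 Sd peaks, and one on 2R from 21076953 to 21078538 (89.0) with 2 Sd peaks and its nearest Pol II peak 21555 bp away. The remaining 6 of the 10 highest were at 428752 to 432380 (88.6) and 12004565 to 12007906 (86.5) of 2L, at 17444809 to 17445847 (88.0), 5694101 to 5695163 (86.9) and 11067853 to 11069669 (84.9) of 3R, and at 856019 to 856816 (86.1) of chromosome 4. In the region at 11067853 both Sd peaks scored high, 16.2 at 11068058 to 11068540 and 12.4 at 11069333 to 11069637, and a single Pol II peak of 4226 bp covered the whole region. Of these 10 regions, 5 overlapped Pol II.

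Sd peaks in a group scored slightly lower than lone ones. Grouped Sd peaks had a median score of 6.17 (quartiles 4.58 and 8.77) and lone Sd peaks of 6.99 (5.0 and 9.27). Their widths were close as well, with a median of 298 bp against 269 bp. Of the 25 Sd peaks tied at the top score, 2 were grouped, both on X: the one already given and another at 3367598 to 3368340. At the low end, 24 grouped Sd peaks had a score below 3, of 125 such peaks in the whole list. Over all Sd peaks, 11.5% were grouped. With Sd peaks below a score of 3 left out, 251 grouped Sd peaks in 116 regions remained.

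Scores within a region varied from near equality to a wide difference. The highest Sd score of a region had a median of 8.29 and the second highest of 5.35. The difference between them, which is never below 0 because the peaks were ordered by score, had a median of 2.62 (quartiles 1.20 and 4.00). In 28 regions it was under 1 and in 21 over 5. Where a region held 3 or more Sd peaks, the highest was an outer one in 10 and an inner one in 7. Together the Sd peaks filled a median of 51.0% of the region's width (range 21.7 to 86.9), close to the 52.5% that a lone Sd peak filled of its narrower region.

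Separate Sd peaks of 1 region cannot all lie at its centre, so their position there follows in part from the rule. Their centres were a median of 323 bp from the region's centre, against 47.0 bp for lone Sd peaks, and in 106 of the 118 regions with 2 Sd peaks the centre of the region lay between them. At the side where Sd came nearer to the end of the region, the outermost Sd peak stopped a median of 66.0 bp short of it, and at the other side 197 bp.

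Neighbouring Sd peaks of a region were mostly well under 1000 bp apart. Over 158 neighbouring pairs, the distance between centres had a median of 590.5 bp (quartiles 473 and 788, range 313 to 1997), and the gap from edge to edge had a median of 246 bp (range 55 to 1702). Up to 500 bp lay between the centres of 50 pairs, over 500 and up to 1000 bp in 87, and more in 21. The gap was under 100 bp in 18 pairs. Over the whole Sd list, the smallest gap between neighbouring peaks was 55 bp from edge to edge, and the smallest distance between centres was 288.5 bp. The scores of 2 neighbours differed by a median of 2.69.

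The nearest pair was on 3R, at 6182863 to 6183086 and 6183142 to 6183433, 313 bp from centre to centre, with low scores of 4.09 and 2.06. A pair on 2L in a region from 9198145 to 9198903 was 322 bp apart with scores of 10.1 and 6.10, and another on 2L in a region from 382693 to 383233, the narrowest of all at 541 bp, was 323 bp apart. On X, the last 2 of 3 Sd peaks in a region from 1459703 to 1461352 were 340.5 bp apart, and on 3R a pair in a region from 21380974 to 21382050 was 356.5 bp apart. None of these Sd peaks overlapped Pol II, where 34.8% of all grouped Sd peaks did. They were picked by spacing alone, and a link between spacing and Pol II was not tested. The widest spacing, 1997 bp, was in a 4133 bp region on 3R from 17473737 to 17477869, whose other neighbouring pair was 1424 bp apart. The others of the 5 widest were 1629 bp on 3L in a region from 21019231 to 21021336, 1573 bp on 3L in a region from 8813475 to 8816370, and 1377 bp on 3R in a region from 18972533 to 18975410. Of these widely spaced peaks, only the pair at 3L 21019295 to 21021210 overlapped Pol II, with both peaks.

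Nearer neighbours shared 1 Yki region more often. A region must span the gap between its Sd peaks, so this follows in part from the rule, and the shares are descriptions. Among all neighbouring Sd peaks of the list with centres up to 500 bp apart, 50 of 53 pairs lay in 1 Yki region (94.3%, exact 95% interval 84.3 to 98.8). From 500 to 750 bp it was 59 of 89 (66.3%), from 750 to 1000 bp 28 of 70 (40.0%), from 1000 to 1500 bp 18 of 95 (18.9%) and from 1500 to 2000 bp 3 of 59. At 2000 to 3000 bp it was 0 of 97 (exact 95% interval up to 3.73%). Within 1000 bp, 68 pairs were split over separate Yki regions. The closest of them was on 2RHet, 365 bp apart from centre to centre, and the next, on 2L at 12424098 to 12424346 and 12424626 to 12424866, was 524 bp apart. Grouping by Yki region therefore takes in 137 of 212 Sd pairs within 1000 bp, or 64.6%. Neighbouring Sd peaks over the whole list had a median distance of 22821 bp.

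**Figure D2:**
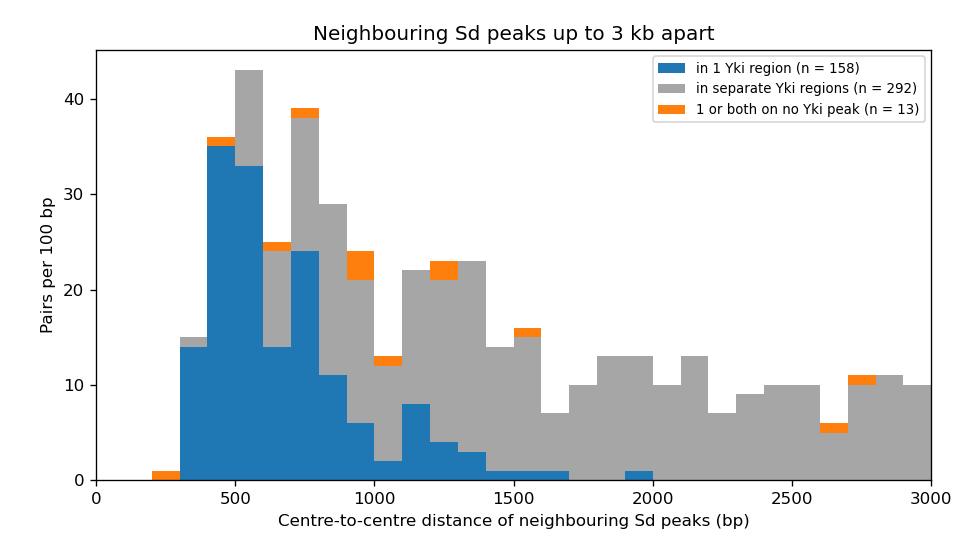
Centre-to-centre distance of neighbouring Sd peaks up to 3 kb apart (x axis, bp) against the number of pairs per bin (y axis), coloured by whether 1 Yki region holds both, separate regions hold them, or at least 1 is on no Yki peak. Most pairs in 1 region, 137 of 158, lie between 313 and 1000 bp apart, and above 750 bp pairs in separate regions are the more numerous.

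The 17 regions with 3 or more Sd peaks are mapped to scale in the plot of Sd and Pol II peaks along each region. The region with most Sd peaks spanned 3342 bp of 2L, from 12004565 to 12007906. Its 5 Sd peaks lay at 12004721 to 12005000, 12005380 to 12006189, 12006254 to 12006585, 12006995 to 12007219 and 12007290 to 12007865. Their scores were, in that order, 8.79, 10.6, 5.81, 5.08 and 9.36, and the gaps between them 379, 64, 409 and 70 bp. As called, the peaks thus formed a single one followed by a pair of close doublets. The gaps of 64 and 70 bp are near the smallest of the Sd list, 55 bp. Whether such close peaks are separate sites was not tested. Its nearest Pol II peak was 2159 bp away.

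In the widest region of all, 4492 bp on 3L from 617728 to 622219, Sd peaks lay at 618033 to 618236, 618654 to 619271, 619600 to 620367 and 621129 to 621354. The second of them scored 11.5 and the others between 3.83 and 5.68. Pol II was 6060 bp away. The second widest of the regions with 4 Sd peaks, 3629 bp on 2L from 428752 to 432380, had Sd scores of 12.2, 6.06, 6.82 and 7.26 from left to right. A Pol II peak covered 36.2% of it and overlapped the last 2 Sd peaks, at 430849 to 431153 and 431604 to 431957, but not the strongest one at 429119 to 429660. On X from 18431833 to 18435422 (3590 bp), 4 Sd peaks scored 9.74, 5.0, 12.8 and 6.33, and the Pol II peak there, over 7.69% of the width, met none of them. The narrowest with 4 Sd peaks, 1824 bp on 2R from 9450721 to 9452544, had 1 strong Sd peak at 9451282 to 9451588 (11.1) and others between 2.10 and 3.90, and no Pol II.

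Of the 12 regions with 3 Sd peaks, 5 were without Pol II, 5 had Pol II over part of their Sd peaks and 2 had it over all. Those without Pol II were on 3L from 606914 to 608987, where 2 Sd peaks scored 12.3 and 12.6, on 3R from 17473737 to 17477869 and from 18972533 to 18975410, and on X from 1459703 to 1461352 and from 18867423 to 18869550. The last had a Sd peak of 14.2 and its nearest Pol II peak 42485 bp away, whereas the one on 3L had a Pol II peak 300 bp beyond its edge. Both regions with Pol II over every Sd peak were on 2L, from 3772509 to 3773978 and from 19571473 to 19573578, and each met 2 Pol II peaks, which covered 85.7% and 90.5% of the width. The mixed ones were at 15253196 to 15254960 of 3L, at 25080817 to 25083294 of 3R, and at 3367452 to 3369578, 17722292 to 17725245 and 18822371 to 18825373 of X. In 3 of these 5 the strongest Sd peak was on Pol II, including the top-scoring 16.3 on X; in the region from 17722292 the strongest, 14.1, was off it.

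**Figure D3:**
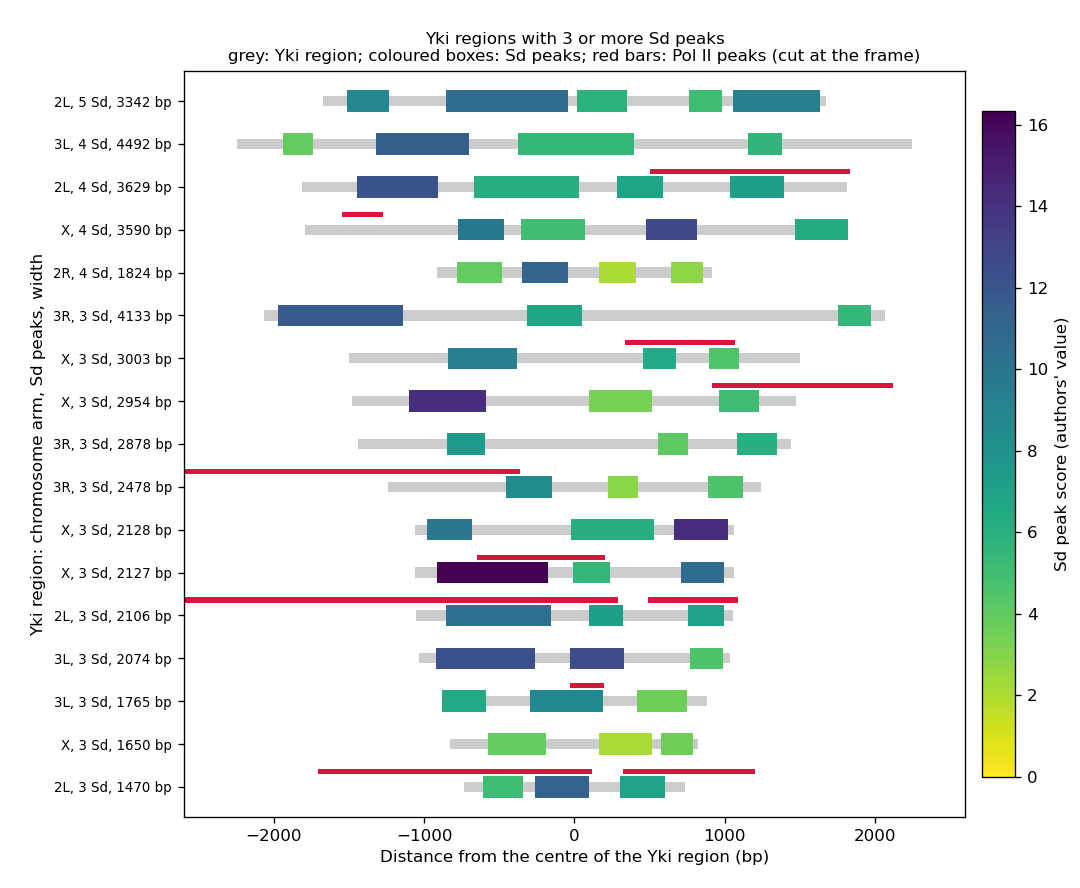
The 17 Yki regions with 3 or more Sd peaks, drawn to scale around the centre of each (x axis, distance in bp), with the arm, number of Sd peaks and width on the y axis. Grey bars are Yki regions, boxes are Sd peaks coloured by score, and red bars are Pol II peaks, present at 9 of the 17 regions and often over part of the Sd peaks.

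Pol II overlap asked whether these regions lie on sites where Pol II was called. A Pol II peak overlapped 72 of the 135 regions, or 53.3% (exact 95% interval 44.6 to 62.0), and 63 had none. Over all Yki peaks, most of them narrower, the share was 54.3%, so the regions were close to this background before width was considered. For Yki regions with 1 Sd peak it was 46.3% (44.2 to 48.4, n = 2210). The difference of 7.04 percentage points had a 95% normal-approximation interval from -1.62 to 15.7, which includes 0. These intervals treat regions as independent and cover counting error only. Averaged within 5 width classes, weighted by the number of grouped regions, the difference was -1.23 points. It was 7.36 points at 800 to 1000 bp and 4.57 at 1000 to 1500 bp, which together hold most of the regions, and -18.8 among the 8 regions up to 800 bp, -8.75 at 1500 to 2000 bp and -7.37 above 2000 bp. Regions with 2 Sd peaks (53.4%, n = 118) and with 3 or more (52.9%, n = 17) had nearly the same share.

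By width, Pol II overlapped 2 of 8 grouped regions up to 800 bp, 11 of 18 from 800 to 1000 bp, 32 of 58 from 1000 to 1500 bp, 14 of 27 from 1500 to 2000 bp and 13 of 24 above 2000 bp. For regions with 1 Sd peak the shares in the same order were 43.8, 53.8, 50.6, 60.6 and 61.5%. The intervals of the grouped regions and of those with 1 Sd peak overlapped in each class. Yki peaks without Sd carried Pol II more often than either in every class, from 55.3% up to 800 bp to 71.8% at 1500 to 2000 bp. That last share rests on 39 peaks, and the class above 2000 bp had 6.

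**Figure D4:**
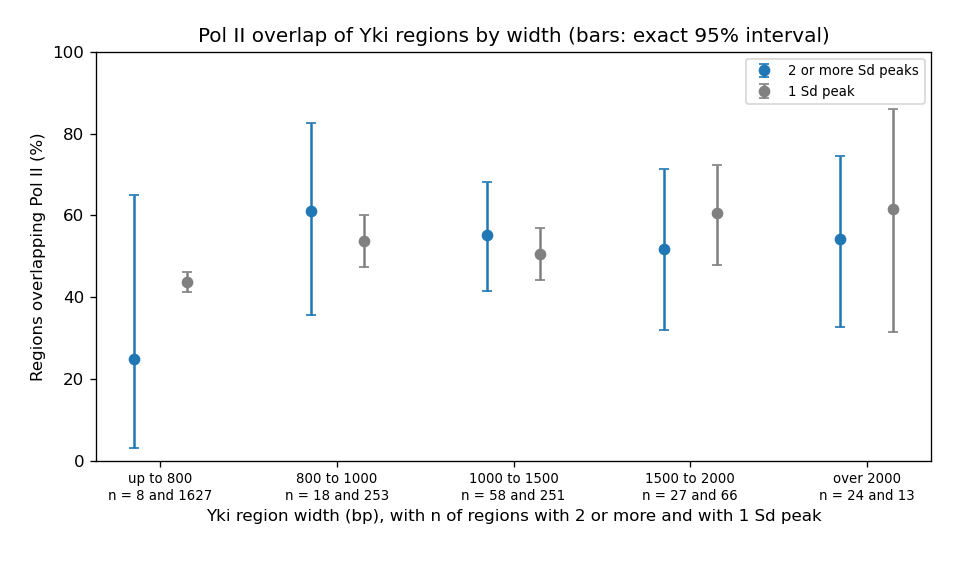
Share of Yki regions that overlap a Pol II peak (y axis, percent, with exact 95% intervals) in 5 classes of region width (x axis, bp), for regions with 2 or more Sd peaks and with 1 Sd peak. The grouped regions lie between 51.9 and 61.1% in the 4 classes above 800 bp, and their intervals overlap those of the regions with 1 Sd peak.

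Counted by Sd peak, Pol II overlapped 102 of the 293 grouped peaks, or 34.8% (29.4 to 40.6), against 39.8% of all Sd peaks and 41.3% (39.2 to 43.4) of the 2206 lone ones. The difference to lone peaks was -6.48 points (-12.3 to -0.655 in the normal approximation, which is too narrow because Sd peaks of 1 region share their surroundings). With 1 Sd peak taken per region, the highest, the difference was -3.52 (-12.0 to 4.91), and with 50% or more of the shorter peak required to overlap it was -1.87 (-7.64 to 3.90). The highest Sd peak of a region was on Pol II in 37.8% of regions and the second highest in 34.1%. Sd peaks within 1000 bp of a neighbour but split over separate Yki regions, and themselves in no group, had a share of 32.3% (24.1 to 41.2, n = 124).

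Where Pol II met a grouped region, it often covered part of it. Of the 72 such regions, every Sd peak was on Pol II in 33, some in 31 and none in 8. The Pol II peaks covered a median of 44.7% of the region's width (quartiles 29.4 and 82.3), over 90% in 13 regions and under 25% in 16. A single Pol II peak was involved in 56 regions and 2 or more in 16. The most, 4, lay on a 2554 bp region on 2L from 440345 to 442898, chosen for this after its values were seen. One of its 2 Sd peaks, 1394 bp long at 441132 to 442525, was the widest of the 293. In the 31 regions with Sd peaks both on and off Pol II, the highest Sd peak was on Pol II in 18 and off it in 13, and the top score on Pol II exceeded the top score off it by a median of 0.357. Grouped Sd peaks on Pol II had a median score of 6.50 and those off it of 6.10. A Pol II peak reached into the gap between the Sd peaks in 49 of the 158 neighbouring pairs (31.0%).

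Regions with Pol II had higher Yki scores than those without, with a median of 59.2 (quartiles 41.9 and 69.9, n = 72) against 40.2 (26.8 and 53.8, n = 63). The same order was seen in regions with 1 Sd peak, at 45.3 and 34.9. Width and spacing differed little: the median width was 1394 bp with Pol II and 1266 bp without, and neighbouring Sd centres were a median of 597.5 bp and 586 bp apart. The 92 Pol II peaks on the regions had a median score of 54.4 (quartiles 13.1 and 105) and a median width of 617.5 bp. Pol II peaks on regions with 1 Sd peak scored a median of 63.9 (25.6 and 99.1) and were 593 bp wide. The highest Pol II score on a grouped region, 146, was at X 18824211 to 18824937. Of the 92 Pol II peaks on grouped regions, 13 were wider than 2 kb, and the widest spanned 15479 bp.

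The 63 regions without Pol II lay at very different distances from it. Their distance to the closest Pol II peak had a median of 7059 bp (quartiles 3067 and 18260), against 6360 bp (1999 and 15225) for the 1187 regions with 1 Sd peak and no Pol II. It was within 1 kb for 7 regions and over 10 kb away for 27. The most distant, 57795 bp, was from a 3338 bp region on 3R from 18018157 to 18021494, named after its values were seen. A Pol II peak outside the region but within 10 kb was present for 70.4% of all grouped regions (61.9 to 77.9) and 72.2% of those with 1 Sd peak (70.3 to 74.0).

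The regions were spread over all large arms. There were 33 on 2L, 20 on 2R, 25 on 3L, 28 on 3R and 26 on X, with 1 on chromosome 4 and 1 each on 2RHet and 3RHet. The share of Sd peaks that were grouped was highest on 2L, at 15.3% (12.2 to 18.9) or 73 of 477, followed by X at 13.1% (10.1 to 16.6), 3R at 10.4%, 2R at 10.1% and 3L at 9.91%. The interval of 2L overlapped those of the other large arms. Grouped Sd peaks come in sets of 2 or more per region, so these intervals are too narrow, and no difference between arms was tested. Of the 17 regions with 3 or more Sd peaks, 6 were on X, 4 on 2L, 3 each on 3L and 3R, and 1 on 2R. Pol II overlapped 65.4% of the regions on X (44.3 to 82.8) and 36.0% of those on 3L (18.0 to 57.5), again with overlapping intervals.

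Chromosome 4, the small and largely heterochromatic chromosome, carried Sd peaks densely, at 39.3 per Mb where the other arms had 20.6, but few of them were grouped. Its 1 region held 2 of 53 Sd peaks, or 3.77% (0.460 to 13.0), against 11.7% (10.4 to 13.0) on the other arms. These intervals overlapped, and the share on chromosome 4 rests on 1 region. That region, 798 bp from 856019 to 856816, held Sd peaks of nearly equal score, 9.25 and 10.0. A further Sd peak at 855578 to 855799, on a separate Yki peak, lay 557.5 bp from the first of them. On heterochromatic or unplaced sequence, 4 of 49 Sd peaks were grouped. The region on 2RHet from 197906 to 198971 had Pol II over 1 of its Sd peaks, and the region on 3RHet from 1823380 to 1824240 over both.

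Along the arms the regions were uneven. With each arm cut into 3 equal parts by coordinate, the first part of 2L held 18 of its 33 regions and the first part of 3L 15 of its 25. On these arms the coordinates start at the tip of the chromosome. Sd peaks themselves were also more frequent there on 2L, but less unevenly: 18.8% of 207 Sd peaks in the first part were grouped, against 10.9% of 137 in the middle and 14.3% of 133 in the last. On 3L, 17.2% of 192 Sd peaks were grouped in the first part, 6.01% of 183 in the middle and 5.88% of 170 in the last. On X the last part, near the centromere, held 12 of 26 regions, with 19.1% of its 152 Sd peaks grouped, against 13.1% over all of X. On 3R and 2R the coordinates run the other way. The share of grouped Sd peaks rose from 7.04 to 10.7 and 14.0% on 3R, and was 7.69, 11.2 and 11.1% on 2R.

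**Figure D5:**
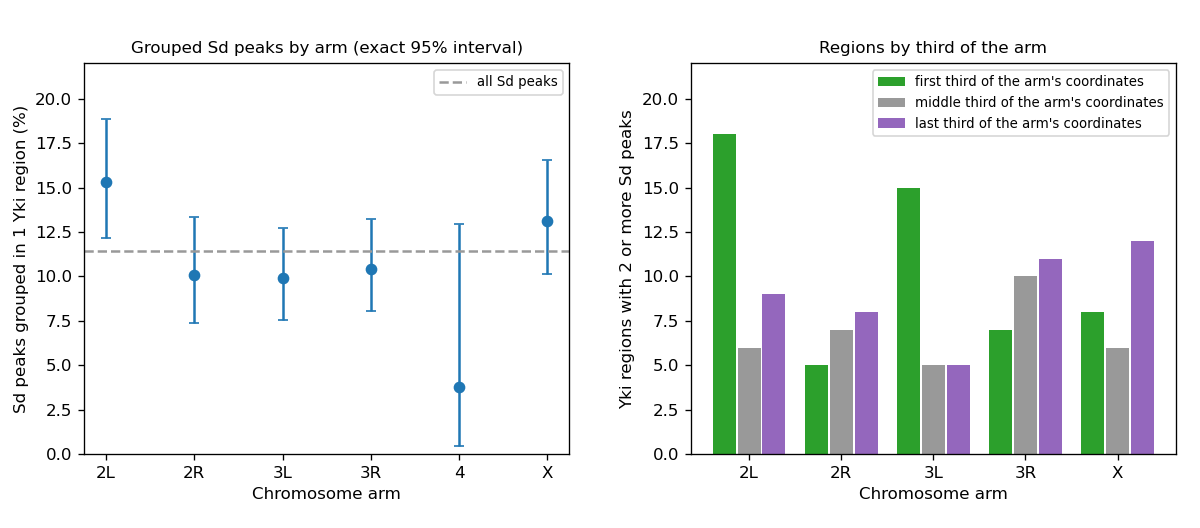
Left, share of Sd peaks grouped in 1 Yki region by chromosome arm (y axis, percent, with exact 95% intervals; the dashed line is the share over all Sd peaks, 11.5%). Right, number of Yki regions with 2 or more Sd peaks in each of 3 equal parts of the arm's coordinates, with 18 on the first part of 2L and 15 on the first part of 3L.

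Some regions lay next to each other. Of 127 neighbouring regions on the same chromosome, 31 were under 100 kb apart and 10 under 10 kb, while the median gap was 524853 bp. The region with 5 Sd peaks on 2L was followed after 2135 bp by another from 12010042 to 12012715 with 2, so that 7 Sd peaks fell in 2 adjacent regions. On 3L, the regions from 606914 to 608987 and from 617728 to 622219 were 8740 bp apart and also held 7 Sd peaks, none on Pol II. The nearest regions, 1056 bp apart on 3L, ran from 15251213 to 15252139 and from 15253196 to 15254960. In windows of 100 kb, 113 held a region, 18 of them 2 and 2 of them 3. Those with 3 were adjoining, on 3L from 600001 to 700000, where 9 of 15 Sd peaks were grouped, and from 700001 to 800000, where 6 of 9 were.

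Around a region, another Sd peak outside it but within 10 kb was present for 64.4% of grouped regions (55.8 to 72.5) and for 48.4% of regions with 1 Sd peak (46.3 to 50.5). Since the Sd list chose the regions, this is a description of how Sd peaks cluster. The number of other Yki peaks within 10 kb had a median of 3 in both.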

How the data were processed

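Each immunoprecipitation gave 1 peak list, so there were 3 files. The authors used MACS2, Bowtie and CASAVA 1.8.2 with build dm3, per the submitters' processing notes. Parameters, the control and any filter are not stated in them. The deposited score of each peak is the authors' value in a list without a header. Its lowest values, 3.01 (Yki), 2.00 (Sd) and 3.01 (Pol II), are those a −log10 q value cut at whole numbers would have, but no source names the unit. The input libraries were not analysed here.

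Overlaps of at least 1 bp were counted with pandas 2.3.3, scipy 1.17.1 and numpy 2.4.6 in Python 3.11.15 and drawn with matplotlib 3.10.9, tested on simulated peaks and checked against bedtools. Coordinates are 1-based. Shares carry exact Clopper-Pearson 95% intervals. Members, rule and tests were chosen with earlier results of these data known. Regions named were all with 3 or more Sd peaks, the 10 of highest Yki score, the 5 widest, those with the 5 narrowest and 5 widest spacings, and all on chromosome 4 or heterochromatic sequence. Others named as examples (neighbouring regions, rule limits, split pairs) were chosen after their values were seen. An arm was taken to end where its last peak of the 3 lists ends. Alternatives covered the overlap rule, score limits, arms alone, Sd central bases, a 1 kb Pol II distance and width classes.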

Additional observations from a re-analysis of the deposited data

How the results depend on the processing

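Of 47 alternative values, 39 kept the sign of the reported value and stayed within its interval or, for counts, within 1.5 times of it. Keeping the upper 50% of each list by score left 64 grouped Sd peaks in 31 regions, with centres 697 bp apart. Pol II was on 38.7% of these regions, and the difference to regions with 1 Sd peak was 3.31 points (-14.1 to 20.7). The Pol II list is shorter there, as are the Yki and Sd lists, and their parts were not tested. Measured from edge to edge, the spacing was 246 bp by construction. With a Pol II peak within 1 kb counted as well, 53.2% of grouped Sd peaks had one, and their difference to lone Sd peaks turned to 0.160 points. The comparison to lone Sd peaks and its alternatives were added after seeing the data. Within width classes, the difference between grouped regions and regions with 1 Sd peak turned to -1.23 points, which is still inside its interval. The class limits were also set after seeing the data. No paired analysis was possible because there was a single library per antibody. Depth is unknown, and a single Sd peak is a place where 1 peak was called, not one shown to hold 1 site. Nor are close Sd peaks shown to be separate sites.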
